A study of Mus musculus with 2 samples.

Results

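The genes of MHC class II antigen presentation were taken from the deposited table by name, as the 10 rows for Cd74, H2-Aa, H2-Ab1, H2-Eb1, H2-DMa, H2-DMb1, H2-DMb2, H2-Oa, H2-Ob and Ciita among 54532 genes. The study sorted macrophages from the aorta of male ApoE-/- mice on a C57BL/6J background by the surface markers F4/80 and CD11b after digestion with trypsin. The mice are listed as 6 weeks old where the animals are described, ahead of the treatments below, which lasted at least 4 weeks. The PDR group (phlegm-dampness retention syndrome) received a high-fat diet for 4 weeks. The SKYD group (spleen and kidney Yang deficiency syndrome) received propylthiouracil by gavage at 10 mg per kg per day for 4 weeks and then the high-fat diet for 2 weeks. Cells of 5 mice were pooled into 1 library in each group, so no spread between mice could be measured, and neither an untreated ApoE-/- library nor a wild-type library was available.

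MHC class II molecules show fragments of extracellular and endosomal proteins to CD4+ T cells, and they are carried by dendritic cells, B cells, thymic epithelium and activated macrophages. An alpha and a beta chain (I-A from H2-Aa and H2-Ab1, and I-E, whose beta chain comes from H2-Eb1) assemble with the invariant chain from Cd74, which blocks the peptide groove and carries the complex to endosomes, where proteases trim it to a short remnant. H2-DM, made of an alpha chain from H2-DMa and a beta chain from H2-DMb1 or H2-DMb2, removes this remnant and helps load peptide, H2-O, from H2-Oa and H2-Ob, restrains H2-DM, and the coactivator from Ciita switches on most of these genes without binding DNA itself.

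Of the 10 members, 8 lie on chromosome 17 within the major histocompatibility complex, Cd74 lies on chromosome 18 and Ciita on chromosome 16. In the order of the chromosome, the 8 are H2-Oa, H2-DMa, H2-DMb2, H2-DMb1, H2-Ob, H2-Ab1, H2-Aa and H2-Eb1. H2-DMb1 and H2-DMb2 are neighbouring copies, and the longest stretch of transcript they share is 221 bases. Of the 100-base windows of their transcripts, 11.3% for H2-DMb1 and 10.3% for H2-DMb2 occur in the other gene, whereas the other 8 members share 0 such windows with any other gene. A read from a shared window does not by itself tell the copies apart.

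Class II genes are known for a shared promoter module in which an X box, bound by the RFX complex, stands ahead of a Y box, bound by NF-Y, and Ciita acts on the factors assembled there. RefSeq promoter windows on GRCm38.p6, from 250 bases before to 50 bases after the start site, were matched for 7 of the 10 members, with 8 windows in all. H2-Ab1, Cd74 and Ciita had no entry in the set of windows used, which covers 27025 genes. The Y box core GATTGG was found on either strand in a window of 7 of these 7 genes, and in 16.1% of all 32851 windows. The X box core AGNAACNGA was found in 3 of the 7 (H2-DMb1, H2-Eb1 and H2-Oa) and in 5.35% of all windows, although the match in H2-Oa lay on the opposite strand 4 bases before the start. A match describes letters in a window and does not show that a factor binds there. Nor does a window without an exact match show that the X box is absent. The letters agcaacaaa, in the stretches of H2-Oa and H2-Ob below, come close to the X box core without matching it.

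The stretches below show 60 bases that end with the Y box core on the strand of the gene, so that the module can be compared between members past 2-fold and members within 2-fold. They are from RefSeq windows on GRCm38.p6, 5′ to 3′, with exact matches to the box cores in capitals. They lie at chr17:34145104-34145163 (+) for H2-DMb2, chr17:34092281-34092340 (+) for H2-Oa, chr17:34238793-34238852 (+) for H2-Ob, chr17:34287867-34287926 (-) for H2-Aa and chr17:34305753-34305812 (+) for H2-Eb1.
H2-DMb2: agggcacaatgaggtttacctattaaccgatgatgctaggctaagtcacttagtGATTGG
H2-Oa: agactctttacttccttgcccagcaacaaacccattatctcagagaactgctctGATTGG
H2-Ob: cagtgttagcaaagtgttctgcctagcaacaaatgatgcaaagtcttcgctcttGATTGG
H2-Aa: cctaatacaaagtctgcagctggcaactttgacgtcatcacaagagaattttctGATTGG
H2-Eb1: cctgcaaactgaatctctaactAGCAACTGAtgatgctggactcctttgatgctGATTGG

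On the strand of the gene, the Y box core began 44 bases before the RefSeq start in H2-Oa, 49 in H2-Aa, 58 in H2-Ob, 60 in H2-Eb1, 62 in H2-DMb1 and 91 in H2-DMb2. The start sites of the 2 H2-DMa windows lay 12350 and 9664 bases before the start that the deposited table gives for that gene, so neither window covers the table's start. The H2-DMb2 stretch lay inside the gene as the table draws it, in an intron of a longer transcript, and the other 4 printed stretches began before the table's start of their gene. The matching stretch of H2-DMb1 is not printed because all 60 of its bases lie in annotated exons, after the table's start of the gene. The X box core of H2-Eb1 ended 23 bases ahead of the Y box core, and that of H2-DMb1 ended 24 bases ahead. Over the 60 bases that end with the Y box core, H2-DMb1 and H2-DMb2 were identical at 54, or 90%. Every other pair of the 6 genes, H2-DMa left out, was identical at 15 to 27. The copies of H2-DMb thus carried nearly the same letters there, and the letters AGNAACNGA were present in H2-DMb1 and not in the H2-DMb2 window. The interferon-stimulated element core GAAANNGAA was found in 0 of the 7 genes and in 8.56% of all windows.

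Levels are given as FPKM, the reads of a gene scaled to its length and to the size of the library, which allows genes of different length to be compared. Cd74, the invariant chain, stood at 5183 FPKM in the PDR group and 5257 FPKM in the SKYD group, and ranked 13th and 14th among all genes. H2-Ab1 stood at 2751 and 2581 FPKM, H2-Aa at 2907 and 2156 FPKM, and H2-Eb1 at 1855 and 1939 FPKM, in the PDR and the SKYD group. The invariant chain and the chains of the peptide-binding molecules were therefore among the 50 most abundant genes of each library. H2-Eb1 was transcribed at this level although C57BL/6 mice are known to carry no working alpha chain for I-E. Its partner was present in the table only as the pseudogene H2-Ea-ps, with 2 reads in the PDR group and 6 in the SKYD group.

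The genes that edit the peptide load were lower, H2-DMa and H2-DMb1 by about a factor of 10 below H2-Ab1. H2-DMa stood at 258 and 202 FPKM and H2-DMb1 at 260 and 198 FPKM in the PDR and the SKYD group. H2-DMb2 stood at 251 FPKM in the PDR group, close to the other H2-DM genes, and at 80.2 FPKM in the SKYD group, well under them. H2-Oa was at 59.2 and 18.6 FPKM, H2-Ob at 52.8 and 17.7 FPKM, and Ciita at 5.55 and 1.81 FPKM. Levels of the 10 members thus spanned about 3 orders of magnitude, and the 4 members with the lowest mean level were H2-DMb2, H2-Oa, H2-Ob and Ciita.

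**Figure D1:**
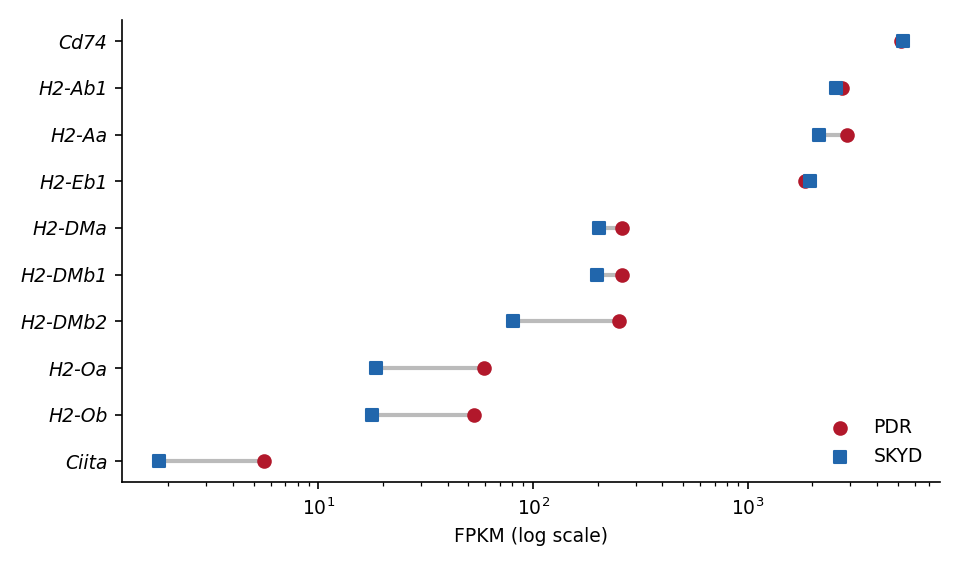
Level of each class II member in the PDR library (circles) and the SKYD library (squares), ordered by mean FPKM. Each point is 1 pool of 5 mice. The points of Cd74, H2-Ab1 and H2-Eb1 nearly coincide, and those of H2-DMb2, H2-Oa, H2-Ob and Ciita stand apart.

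Differences were taken as log2(FPKM + 1) in the PDR group minus the SKYD group, and a gene counted as different when it passed 2-fold. All 10 members had a mean of at least 1 FPKM, as did 10399 of the 54532 genes. Of the 10 members, 4 were higher in the PDR group by more than 2-fold, where 7.38% of the 10399 tested genes were, and 0 higher in the SKYD group by more than 2-fold, where 6.91% of tested genes were. The median difference of the members was 0.41, and the median of all tested genes was -0.0035. The member nearest the threshold inside was Ciita at 1.22, and the nearest outside was H2-Aa at 0.43, so no member lay close to 2-fold. The intervals below cover the error of counting reads alone and say nothing about mice.

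H2-DMb2 differed by 1.63 (95% interval 1.58 to 1.69), from 10066 reads in the PDR group and 3426 in the SKYD group, a ratio of FPKM of 3.13. H2-Oa differed by 1.62 (1.49 to 1.75), from 1828 and 611 reads, a ratio of 3.18. H2-Ob differed by 1.52 (1.44 to 1.61), from 3911 and 1395 reads, a ratio of 2.98. Both chains of the H2-DM inhibitor and the H2-DMb2 form of H2-DM were thus higher in the PDR group by nearly the same factor. Ciita, the coactivator, differed by 1.22 (1.11 to 1.33), from 1244 and 432 reads. Its ratio of FPKM was 3.06, in the range of the other 3, and the added 1 in the log scale lowers the difference of a gene at this level. Because reads were summed over the whole gene, they do not show which of the known Ciita promoters was in use.

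The other 6 members stayed within 2-fold. H2-Aa differed by 0.43 (0.42 to 0.44), H2-DMb1 by 0.40 (0.35 to 0.44) and H2-DMa by 0.35 (0.31 to 0.39), and each was higher in the PDR group under every scaling tried. H2-Ab1 differed by 0.09 (0.08 to 0.10). Cd74 differed by -0.02 (-0.03 to -0.01) and H2-Eb1 by -0.06 (-0.08 to -0.05), and the sign of each became positive when values were rescaled to reads outside immunoglobulin, T cell receptor and haemoglobin genes (0.10 and 0.05). The sign also became positive for Cd74, but not H2-Eb1, when values were rescaled to the summed reads on genes. These 3 most nearly equal genes include the most abundant member, so the total moved little.

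**Figure D2:**
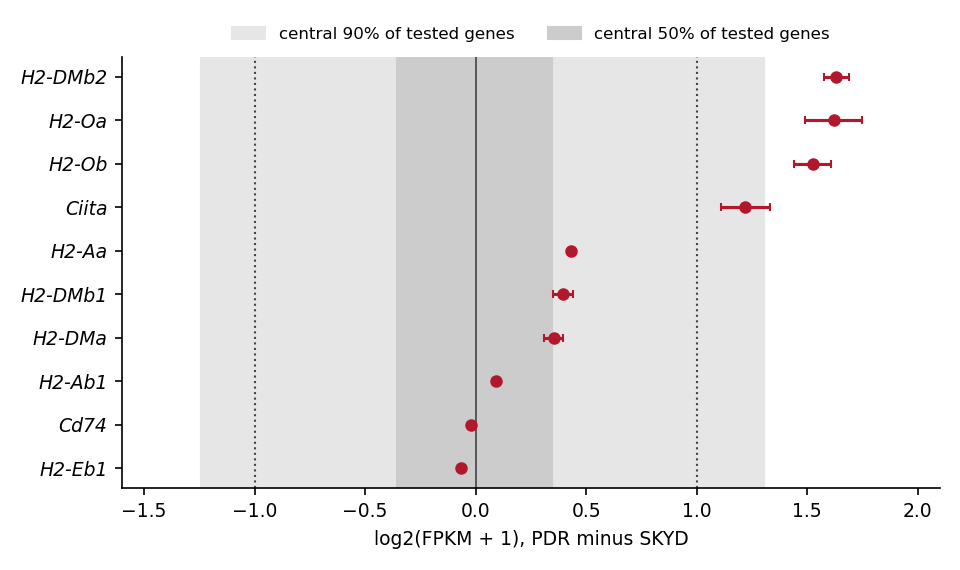
Difference of each class II member, log2(FPKM + 1) in PDR minus SKYD, with the 95% interval from counting reads. Shading shows where the central 50% and 90% of the 10399 tested genes lie, and dotted lines mark 2-fold. The signs of Cd74 and H2-Eb1 turned positive when values were rescaled to reads outside immunoglobulin, T cell receptor and haemoglobin genes, and that of Cd74 also when rescaled to summed reads.

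The summed level of the 10 members was 13583 FPKM in the PDR group and 12451 FPKM in the SKYD group, a ratio of 1.09. These genes held 2.14% of reads in the PDR group (2.13% to 2.14%) and 1.85% in the SKYD group (1.85% to 1.86%). Of the summed level, the 4 members past 2-fold made up 368 and 118 FPKM, and the 6 within 2-fold 13215 and 12332 FPKM. The members past 2-fold thus carried a small share of class II RNA, and most of the gap between the summed levels lay in the 6 members within 2-fold, chiefly H2-Aa.

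Ratios between members within 1 library do not depend on how the libraries are scaled. H2-DMb2 stood at 0.96 of H2-DMb1 in the PDR group (0.94 to 0.99) and at 0.41 in the SKYD group (0.39 to 0.42). H2-DMb1 stood at 1.01 and 0.98 of H2-DMa, with overlapping intervals (0.98 to 1.04 and 0.95 to 1.01). The alpha chain and the H2-DMb1 beta chain of H2-DM thus kept nearly the same proportion in both libraries while the H2-DMb2 beta chain did not. H2-Oa stood at 0.23 of H2-DMa in the PDR group (0.22 to 0.24) and at 0.092 in the SKYD group (0.085 to 0.10). H2-Ob stood at 0.89 and 0.95 of H2-Oa, again with overlapping intervals (0.84 to 0.94 and 0.87 to 1.05). The chains of the inhibitor H2-O were therefore close to 1 to 1 in each library, and the alpha chain of H2-O was higher relative to that of H2-DM in the PDR group by a factor of 2.49 (2.26 to 2.74). By the sums of their genes, H2-O was higher relative to H2-DM by a factor of 1.92. Relative to H2-DMb2, H2-Oa stood at 0.236 and 0.232, with overlapping intervals (0.225 to 0.248 and 0.213 to 0.253).

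Among the peptide-binding chains, H2-Aa stood at 1.06 of H2-Ab1 in the PDR group (1.05 to 1.07) and at 0.835 in the SKYD group (0.828 to 0.843). H2-Eb1 stood at 0.674 and 0.751 of H2-Ab1. Cd74 exceeded H2-Ab1 by a factor of 1.88 in the PDR group and 2.04 in the SKYD group, so there was more RNA for the invariant chain than for either I-A chain in both. Relative to H2-Ab1, Ciita was higher in the PDR group by a factor of 2.88 (2.58 to 3.21). The level of the coactivator and the level of its best-known targets thus did not move by the same factor.

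**Figure D3:**
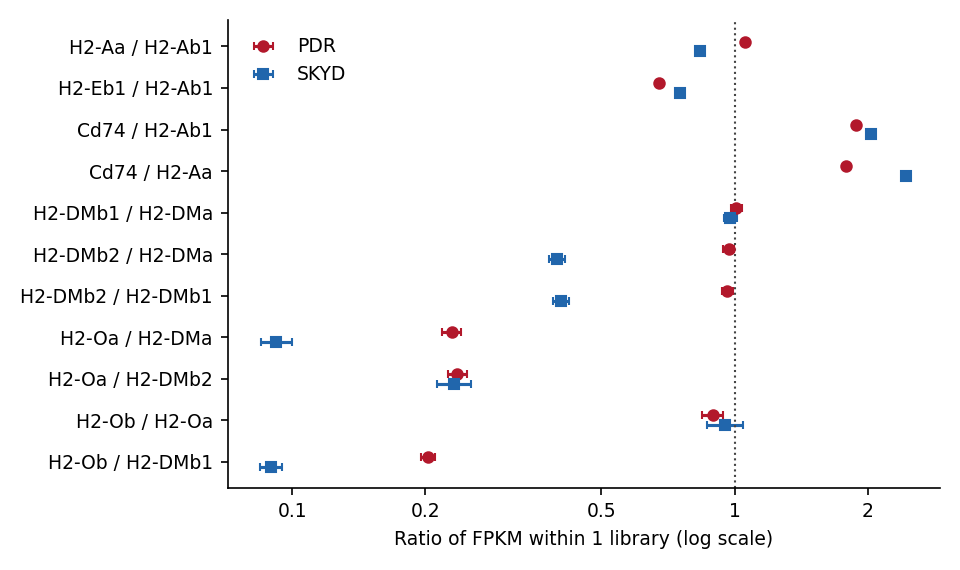
Ratios of FPKM between class II members within each library, with 95% intervals from counting reads. The pairs H2-DMb1 to H2-DMa, H2-Oa to H2-DMb2 and H2-Ob to H2-Oa have overlapping intervals in the PDR and SKYD libraries. H2-DMb2 and the H2-O chains stand higher relative to H2-DMa and H2-DMb1 in the PDR library.

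H2-Eb2, a further beta chain gene beside H2-Eb1, was low, at 3.03 FPKM (157 reads) in the PDR group and 0.58 FPKM (32 reads) in the SKYD group. It differed by 1.35, but it passed the filter on mean FPKM only through the PDR group, where it was higher. Over the 252 kb from H2-Oa to H2-Ea-ps, the 8 other genes with a mean of at least 1 FPKM include 4 that were higher in the PDR group by more than 2-fold (Psmb9, Tap1, Gm20513 and H2-Eb2) and 0 that were higher in the SKYD group by more than 2-fold. Without H2-Eb2 the count was 3 of 7, where 7.38% of all tested genes were higher in the PDR group to that extent. Of these 3, Gm20513 rests on 81 reads in the PDR group and 25 in the SKYD group. Its counting interval, 0.89 to 1.84, spans 2-fold. Psmb9 and Tap1 serve the class I pathway, as a proteasome subunit and a peptide transporter subunit, and differed by 1.39 and 1.89. Psmb8, a further proteasome subunit, lay just under 2-fold at 0.93 (1.04 when rescaled to reads outside immunoglobulin, T cell receptor and haemoglobin genes). Tap2, the other subunit of the transporter, did not follow Tap1. It stood at 15.6 FPKM in the PDR group and 16.8 FPKM in the SKYD group, a difference of -0.10. Members past and within 2-fold were interspersed along the chromosome, as H2-DMb2 lies between H2-DMa and H2-DMb1.

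**Figure D4:**
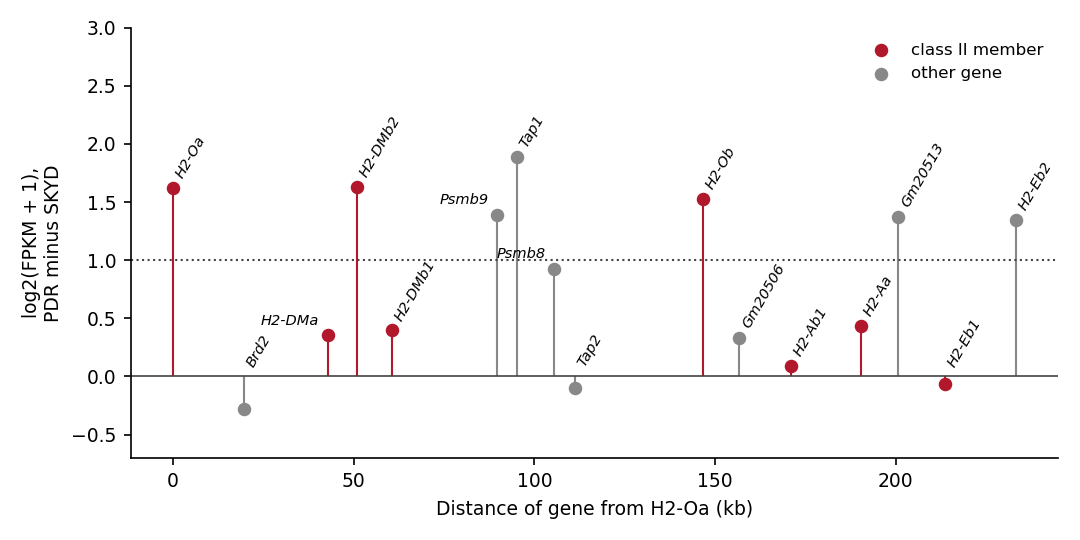
Difference of each gene, log2(FPKM + 1) in PDR minus SKYD, by its distance from H2-Oa along the class II region. Class II members are shown in red and other genes with a mean of at least 1 FPKM in grey, and the dotted line marks 2-fold. H2-Eb1, just below 0, turned positive when values were rescaled to reads outside immunoglobulin, T cell receptor and haemoglobin genes.

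Further genes of the pathway were taken as 9 lists. The counts of these lists and of the marker lists stand beside the shares of all tested genes past 2-fold. These were 7.38% higher in the PDR group and 6.91% higher in the SKYD group. Of the subunits of the complexes that bind the X and Y boxes, 0 of 5 tested genes passed 2-fold in either direction, with a median of -0.04. Nfyc and Nfyb, subunits of NF-Y, stood at 18.2 and 16.4 FPKM and at 10.1 and 11.7 FPKM in the PDR and the SKYD group. Rfxap, a subunit of RFX, stood at 7.96 and 16.1 FPKM and had the widest difference of the list, -0.93, which passed 2-fold as -1.01 with a pseudocount of 0.1 or 0.01 in place of 1. The 5 tested subunits were thus nearer in level between the libraries than Ciita. Nfya, a further subunit of NF-Y, was too low to be tested, with 120 and 51 reads, and its ratio of FPKM of 2.50 (1.79 to 3.55) overlapped that of Ciita (2.74 to 3.43).

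Of 7 tested regulators of Ciita, 3 were higher in the PDR group by more than 2-fold and 0 in the SKYD group. Their median was 0.23. Over all tested genes the shares were 7.38% and 6.91%. Irf1, an interferon-induced factor, stood at 56.6 and 15.6 FPKM in the PDR and the SKYD group, a difference of 1.79. Irf8, a factor of myeloid and B cells, stood at 33.6 and 13.4 FPKM, a difference of 1.27. Spi1, the most abundant of the list and a master factor of macrophages and B cells, stood at 108 and 179 FPKM, and so went the other way, by -0.72. Whether these genes bear on Ciita in these cells was not tested.

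The cytokine inputs to class II gave 1 of 8 tested genes past 2-fold in each direction and a median of 0.10. The receptor chains for interferon gamma, Ifngr1 and Ifngr2, stood at 114 and 168 FPKM and at 37.2 and 24.3 FPKM in the PDR and the SKYD group, and the kinase Jak1 at 17.6 and 18.9 FPKM. Il10, a cytokine that lowers class II at the surface of macrophages, stood at 3.28 and 1.10 FPKM (101 and 36 reads), a difference of 1.03. Tgfb1, a cytokine known to restrain Ciita, stood at 0.61 and 3.02 FPKM (72 and 381 reads), a difference of -1.32, and passed the filter only through the SKYD group. Among the 7 genes of at least 1 FPKM in both libraries, 1 was past 2-fold, Il10, and the median was 0.31. The counting interval of Il10, 0.68 to 1.35, spans 2-fold. With a mean FPKM of at least 5, 0 of 5 tested genes passed 2-fold, and as TPM 2 of 10 did in each direction. Interferon gamma itself, Ifng, gave 39 reads in the PDR group and 6 in the SKYD group and was too low to be tested. Il4, the other untested gene of the list, went the other way, with 1 read in the PDR group and 49 in the SKYD group. With no filter, 1 of 10 genes was past 2-fold in the PDR group and 2 in the SKYD group.

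The proteases and the reductase that prepare peptides and trim the invariant chain gave 0 of 11 genes higher in the PDR group by more than 2-fold and 1 in the SKYD group, with a median of -0.12. Ctss, which completes the trimming of the invariant chain in macrophages, dendritic cells and B cells, stood at 2184 FPKM in the PDR group and 2439 in the SKYD group. Ctsz stood at 675 and 705 FPKM, and Ctsd, an aspartic protease of lysosomes, at 234 and 392 FPKM. The 1 gene past 2-fold was Ctsl, which does the work of Ctss in thymic cortical epithelium, at 25.2 and 70.1 FPKM, a difference of -1.44. The 11 genes summed to 4060 FPKM in the PDR group and 4660 in the SKYD group, and so were slightly lower in the PDR group.

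Surface turnover of class II depends on March1, a ubiquitin ligase that sends class II to degradation, and on Cd83, which opposes it. Cd83 stood at 107 FPKM in the PDR group and 22.4 in the SKYD group, a difference of 2.20, and March1 at 11.8 and 9.85 FPKM, a difference of 0.24. The related ligase March8 was under 1 FPKM, at 0.31 and 0.66. At the surface, the invariant chain also serves as a receptor for the cytokine from Mif, with Cd44 and the chemokine receptors Cxcr2 and Cxcr4 as partners, and 0 of these 4 genes passed 2-fold. Mif stood at 273 and 257 FPKM, Cd44 at 20.0 and 24.6, Cxcr4 at 3.96 and 8.67, and Cxcr2 at 4.27 and 2.51. The difference of Cxcr4, -0.97, passed 2-fold with a pseudocount of 0.1 (-1.11) or 0.01 (-1.13) and as TPM (-1.01). Among the genes of surface turnover and the partners of the invariant chain, Cd83 therefore stood furthest from its level in the SKYD group.

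Of 6 tested ligands that accompany class II when T cells are addressed, 3 were higher in the PDR group by more than 2-fold. In the SKYD group 0 were, and the median was 0.86. Over all tested genes the shares were 7.38% and 6.91%. Cd86 stood at 49.5 and 36.6 FPKM, a difference of 0.43, and Cd40 at 27.5 and 12.03 FPKM, a difference of 1.13. The checkpoint ligands Cd274 and Pdcd1lg2 stood at 12.2 and 1.81 FPKM and at 7.25 and 2.19 FPKM, differences of 2.23 and 1.37. Cd40 and the checkpoint ligands thus passed 2-fold, whereas Cd86 differed by the same 0.43 as H2-Aa. Of the receptors that bind class II, Cd4 stood at 1.93 and 14.6 FPKM, a difference of -2.41, and Lag3 gave 2 and 3 reads.

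**Figure D5:**
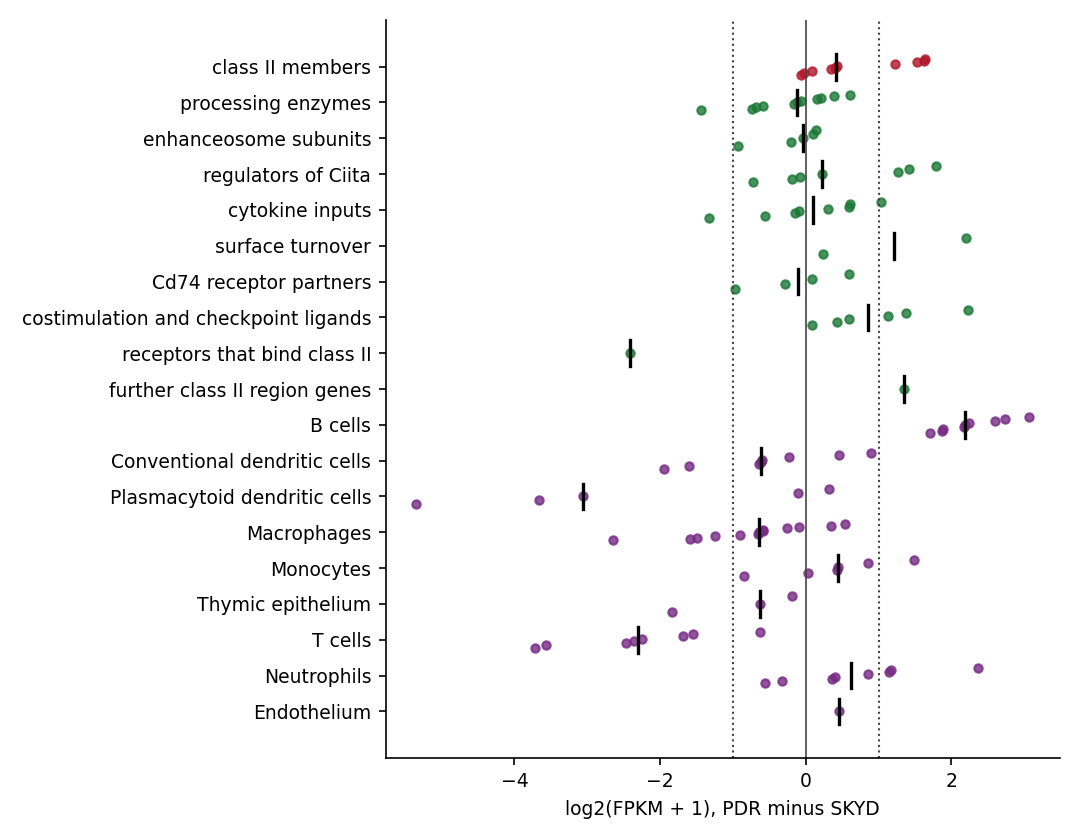
Differences, log2(FPKM + 1) in PDR minus SKYD, of the class II members (red), the lists of further pathway genes (green) and the lists of cell type markers (purple). Each point is a gene with a mean of at least 1 FPKM, black bars mark the median of each list, and dotted lines mark 2-fold. The medians of the enhanceosome, cytokine and Cd74 partner lists changed sign under other settings, as did the differences of Cd74 and H2-Eb1.

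Among markers of cell types that can carry class II, those of B cells were higher in the PDR group, as H2-DMb2, H2-Oa, H2-Ob and Ciita were, and a sort on F4/80 and CD11b should remove B cells. Of 12 B cell markers, 9 were tested and 9 of these 9 were higher in the PDR group by more than 2-fold, with a median of 2.18 and a summed level of 1823 FPKM in the PDR group and 416 in the SKYD group. The most abundant by mean level was Cd79b, part of the B cell receptor, at 802 and 168 FPKM, and none of the 12 was at 0. B cell markers thus stood higher by a factor of 4.38 in sum, beside factors of about 3 for H2-DMb2, H2-Oa, H2-Ob and Ciita. Their part in the result was not tested. In bulk RNA, fewer cells of a type and less RNA per cell cannot be told apart.

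Of 13 macrophage markers, 13 had a mean of at least 1 FPKM, a level that 8 of 8 T cell markers and 9 of 12 B cell markers also reached, so it does not set the sorted cells apart. The sort markers were present, with Adgre1, the gene of F4/80, at 87.3 and 93.3 FPKM in the PDR and the SKYD group, and Itgam, the gene of CD11b, at 8.84 and 14.4 FPKM. Of the 13 markers, 0 were higher in the PDR group by more than 2-fold and 4 in the SKYD group, with a median of -0.64. Their summed level was 24950 FPKM in the PDR group and 48246 in the SKYD group, most of it Lyz2 at 22217 and 41336 FPKM. Summed macrophage marker RNA was thus lower in the PDR group while the sum of class II RNA was not. The part of these markers in the class II result was not tested.

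Conventional dendritic cell markers summed to 138 FPKM in the PDR group and 265 in the SKYD group, with 0 of 8 tested genes higher and 2 lower by more than 2-fold in the PDR group and a median of -0.61. With a pseudocount of 0.1 or 0.01, 3 of the 8 were lower to that extent. The most abundant by mean level was Cd209a, at 42.4 and 167 FPKM, and without it the sums were 95.3 and 98.3 FPKM. Plasmacytoid dendritic cell markers summed to 193 and 275 FPKM, with 0 of 5 higher and 3 lower in the PDR group and a median of -3.06 that ran from -4.51 to -1.52 over the settings tried. The 3 lower genes, Klk1, Ccr9 and Siglech, passed the filter only through the SKYD group, and 1 gene, Bst2, reached 1 FPKM in both libraries, so the median says little. Bst2, the most abundant and also induced by interferon in other cells, stood at 189 and 203 FPKM, and Klk1 was at 0 in the PDR group with 1067 reads in the SKYD group. In the conventional list, Ccr7 stood higher in the PDR group, at 56.7 and 30.1 FPKM, a difference of 0.89, and 1 gene of that list passed 2-fold when values were rescaled to reads outside immunoglobulin, T cell receptor and haemoglobin genes. Thymic epithelium markers summed to 11.3 and 27.5 FPKM, with 0 of 3 tested genes higher and 1 lower in the PDR group, a median of -0.63 (-1.13 to -0.15 over the settings tried) and Krt8 as the most abundant by mean level at 4.26 and 17.8 FPKM. That median is the value of Ccl25, which passed the filter only through the SKYD group. With a pseudocount of 0.1 or 0.01, 2 of the 3 tested epithelial genes were lower in the PDR group by more than 2-fold. The defining genes Foxn1 and Psmb11 were at 0 in both libraries, and Aire and Krt5 at 0 in the PDR group. The part of the dendritic and epithelial markers was not tested.

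RNA of markers was also found for cell types that carry little or no class II in mice, some of which, such as T cells and endothelium, a sort on F4/80 and CD11b should remove. Monocyte markers gave 1 of 6 genes higher and 0 lower by more than 2-fold in the PDR group (median 0.44; sum 5691 and 3280 FPKM; most abundant by mean level Chil3, 2264 and 1245). Neutrophil markers gave 3 of 8 higher and 0 lower (median 0.63; sum 4611 and 3596 FPKM; most abundant by mean level S100a9, 2209 and 1677). T cell markers gave 0 of 8 higher and 7 lower (median -2.30; sum 243 and 1424 FPKM; most abundant by mean level Cd8b1, 39.7 and 535), and Cd4 was lower as well. Endothelial markers gave 1 tested gene of 6, Pecam1 at 3.89 and 2.57 FPKM, a difference of 0.45, with a sum of 4.46 and 2.91 FPKM and Emcn at 0 in the PDR group. The part of these markers in the class II levels was not tested.

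The genes nearest to 3 members in level were found by Euclidean distance of log2(FPKM + 1) over the 2 libraries, a measure that few libraries make coarse. Cd74 was nearest to mt-Co1 (0.239), mt-Nd1 (0.312) and Fth1 (0.466). H2-Ab1 was nearest to Jchain (0.18), Ifi27l2a (0.296) and Ctss (0.343). Ciita was nearest to Pck2 (0.0427), Tnnt3 (0.0512) and Cmah (0.084). At the level of Ciita many genes lie close together, and at the level of Cd74 few do.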

How the data were processed

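RNA of sorted aortic macrophages was measured in 1 pooled library of 5 mice per group. By the submitters' processing notes, the authors aligned reads with TopHat2 2.0.9 and Bowtie2 2.0.6, counted them per gene with HTSeq 0.6.1 and named DESeq 3.18.1, and deposited FPKM for 54532 genes. The notes name mm9, but 98.3% of the 54495 genes shared with GENCODE M21 on GRCm38 have the same start and end, so positions are given on GRCm38. Of the 10 members, 3 have the same start and end there.

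Reads were recovered from the table alone, as FPKM times gene length over the step that 1 read makes, and 100% of values above 0 came within 0.001 of a whole read. Recovered reads total 23086889 (PDR) and 25427863 (SKYD), against sizes behind the FPKM of 23487992 and 24993633. A count of 0 allows up to 3 reads, or 1.3e-05% (PDR) and 1.18e-05% (SKYD). Comparisons used log2(FPKM + 1) for genes whose mean FPKM reached 1, and counted differences beyond 2-fold. Intervals at 95% are exact Clopper-Pearson limits on how the reads of a gene split between libraries, exact binomial limits for shares, and log-normal limits from read numbers for ratios between genes. No p-value was computed.

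The members and lists were chosen with earlier results of these data known. Named genes are the 10 members, the 3 most abundant and up to 2 with the widest difference in each pathway list, all genes of short lists, the most abundant and the absent genes of each marker list, and the 3 nearest in level. Ifng, Il4, Nfya, Rfx5, Ccl25, Ccr7, Ccr9, Siglech, Adgre1, Itgam, H2-DM ratios and neighbouring genes were added after their values were seen. The names March1 and March8, stored as dates in the table, were restored by gene identifier, and H2-Ea has no row. A gene and a motif that were also examined are not reported. Promoters are from RefSeq on GRCm38.p6, and shared windows from GENCODE M21 transcripts. Alternatives were pseudocounts of 0.1 and 0.01, no filter, a mean FPKM of at least 5, 1.5-fold and 4-fold, centring, TPM, reads outside immunoglobulin, T cell receptor and haemoglobin genes, and the sum without Cd74. Added after seeing the data were a rescaling to summed reads and leaving out H2-DMb1 and H2-DMb2. The steps were tested on simulated data in Python 3.11.15 with scipy 1.17.1, pandas 2.3.3 and numpy 2.4.6, and figures were drawn with matplotlib 3.10.9.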

Additional observations from a re-analysis of the deposited data

How the results depend on the processing

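The count of 4 members more than 2-fold higher in the PDR group was 0 with a 4-fold threshold, 3 with a mean FPKM of at least 5 (Ciita falls below it) or without H2-DMb1 and H2-DMb2, and 4 under the other 8 alternatives, 1.5-fold among them. The count of members higher in the SKYD group was 0 under all 10 alternatives run for it. The median member difference of 0.41 became 0.53 when values were rescaled to reads outside immunoglobulin, T cell receptor and haemoglobin genes, which hold 9.73% of reads in the PDR group and 5.47% in the SKYD group, and 0.46 when rescaled to summed reads. The ratio of summed member levels, 1.09, became 1.17 without Cd74, 1.10 as TPM, 1.18 outside those genes and 1.13 by summed reads. Of 79 values of single member differences under alternatives, 19 moved beyond their counting interval. The medians of pathway lists did so in 21 of 71 and those of marker lists in 24 of 71. The difference of Ciita, 1.22, reached 1.61 with a pseudocount of 0.01. Over the settings tried, the median ran from 0.23 to 0.59 for regulators of Ciita, 0.54 to 1.13 for costimulation and checkpoint ligands, -0.14 to -0.00022 for processing enzymes, -0.20 to 0.06 for enhanceosome subunits, -0.10 to 0.21 for cytokine inputs, -0.29 to 0.01 for Cd74 partners and -0.82 to -0.42 for conventional dendritic cells. With no filter, 10 of 12 B cell markers passed 2-fold. The rescaling to summed reads and the removal of H2-DMb1 and H2-DMb2 were chosen after seeing the data. No paired analysis was possible because each group has 1 pooled library. No library could be left out for the same reason.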

Other observations

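Ciita overlaps Dexi on the opposite strand over 25888 bases, and Dexi gave 330 reads in the PDR group and 576 in the SKYD group, the opposite direction to Ciita. H2-Oa is overlapped on the opposite strand along its whole 2895 bases by BC051537, with 0 and 10 reads. Whether reads were counted by strand is not stated, and the effect of these overlaps on the reads of Ciita and H2-Oa was not tested. In each group 1 pool stands for 5 mice, the groups differ in drug, diet length and total time, and the differences between them cannot be assigned to any of these. RNA levels do not show class II protein at the cell surface. The mean FPKM filter left Rfx5, a subunit of the RFX complex, untested at 68 and 64 reads.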
